A study of Mus musculus with 9 samples.

Results

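Wild-type Snai1 was compared with a Snai1 that cannot use its SNAG domain normally, in blood progenitor cells that carried one or the other form at like transcript levels. The comparison used 6 of the 9 libraries of the series, 3 with wild-type Snai1 and 3 with the mutant, and tested every gene that passed a filter on low counts, which was 12340 of 27179 genes. It asks which differences between the forms go with an intact SNAG domain. The cells were HPC7, a mouse haematopoietic progenitor line kept in culture with stem cell factor, here at 100 ng/ml in RPMI with 10% fetal calf serum and 0.05 mM 2-mercaptoethanol. All groups received the retroviral vector MSCV-IRES-GFP, in which the inserted gene and GFP share a transcript, and GFP-positive cells were sorted 1 week later. The first group carried wild-type Snai1, the second a mutant in which alanine replaces phenylalanine at residue 5, and the third, used here for levels alone, carried no added gene. The vector, not the Snai1 gene's own promoter, drives the added Snai1 in this model, and nothing in the labels tells separate cultures or transductions from repeats of 1 culture, so the p-values reflect the spread among these libraries alone, which may be technical.

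Snai1 is a zinc finger protein of the Snail family that binds E-box sequences and is known as a repressor of epithelial genes in the epithelial-mesenchymal transition. Its first residues form the SNAG domain, a short stretch shared with the blood factors Gfi1 and Gfi1b. The domain resembles a histone tail and occupies the demethylase Lsd1, the product of Kdm1a, which removes methyl groups from histones as part of the CoREST complex with histone deacetylases. Per the labels, the substitution impairs the interaction of Snai1 with Lsd1.

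The 6 libraries held 19206884 to 20860314 counts, and 3 counts, used as the floor, equalled between 0.147 and 0.153 CPM (the count scaled to the size of its library). The leading principal component held 81.4% of the variance of log2 levels and separated the groups, and the second held 12.2% and set wild-type replicate 1 apart from the other wild-type libraries. The root mean square difference in log2 level was 0.483 and 0.518 between wild-type replicate 1 and replicates 2 and 3, and at most 0.253 for every other pair within a group. There were 132 genes at least 2-fold above and 325 at least 2-fold below both other wild-type libraries in replicate 1, against 10 and 17 in replicate 2 and 22 and 14 in replicate 3. Values of 3 libraries are given below in the order of replicates 1, 2 and 3, so that this library can be read in each gene, and list counts of calls are given without it where they move by over 1.5 times. In bulk RNA of this kind, fewer cells of a type and less RNA per cell cannot be told apart.

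Transcripts of the targeted gene were at like levels with both vectors. These data do not measure its protein. Snai1 (gene 20613, chromosome 2, 167538195 to 167542814 on GRCm38.p6) was at 425, 488 and 562 CPM with the wild type and at 471, 415 and 493 CPM with the mutant. With empty vector it was at 1.06, 0.722 and 0.698 CPM. The ranges of both Snai1 groups overlapped, and the counts do not tell vector transcripts from those of the cell's own gene. The log2 fold change, here and throughout wild type minus mutant, was 0.09 with a standard error (SE) of 0.11, an adjusted p of 0.568 and a 95% interval of -0.18 to 0.35, which lies inside a 1.5-fold difference. Kdm1a was at 204, 193 and 208 CPM with the wild type and at 197, 198 and 201 CPM with the mutant, with an interval of -0.12 to 0.14. All 12 markers of the progenitor line examined passed the filter, among them the stem cell factor receptor Kit at 3640, 3280 and 3240 CPM with the wild type and 3510, 3720 and 3390 CPM with the mutant. Of markers of other cells, the globin gene Hbb-bs, the T cell gene Cd3e, the fibroblast genes Col3a1, Dcn and Lum and the epithelial gene Krt18 had 0 counts in all 9 libraries.

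At these like Snai1 transcript levels, 5244 of 12340 genes (42.5%) were called at an adjusted p under 0.05. Of all tested genes, 2599 (21.1%) were called higher and 2645 (21.4%) lower with the wild type, around a median log2 fold change of -0.01. Differences of at least 2-fold were fewer, with 799 called genes (6.47%) higher and 635 (5.15%) lower, and the groups of 3 libraries did not overlap in 56% of tested genes. Large differences leaned upward: 342 called genes were at least 4-fold higher and 200 at least 4-fold lower. For 6353 genes (51.5%) the 95% interval lay inside a 1.5-fold difference, and 1458 of these were called all the same. Without wild-type replicate 1, 3718 genes were called higher and 3593 lower, and 5212 of the 5244 calls were kept with 0 of the other sign.

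**Figure D1:**
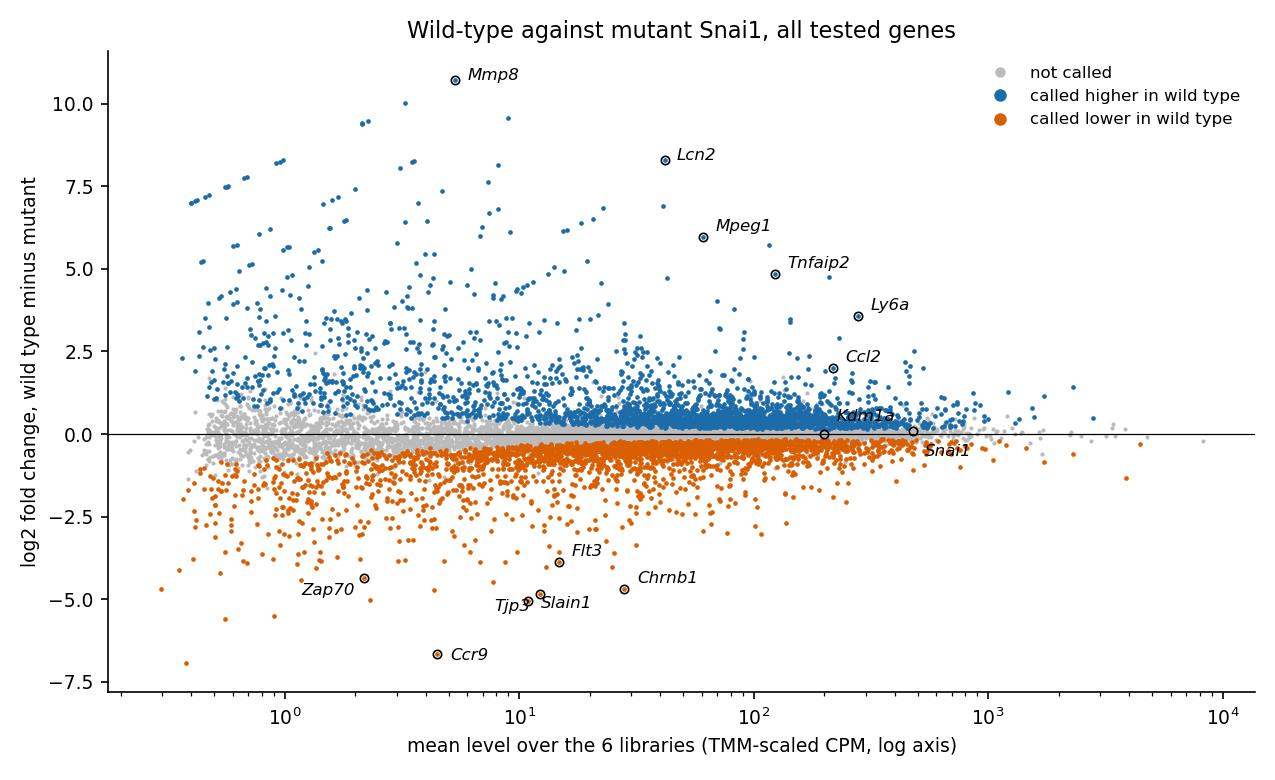
Log2 fold change (wild type minus mutant) against the mean level over 6 libraries in CPM on a log axis for each of the 12340 tested genes; blue points were called higher, orange points lower and grey points not called, and open circles mark named genes. Snai1 and Kdm1a lie at 0.09 and 0.01, while rises such as Lcn2 reach 8.31 and falls such as Ccr9 reach -6.65.

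The 10 deepest falls were of genes at means of 2.24 to 54.1 CPM with the mutant and 0.0823 to 2.1 CPM with the wild type. Slain1, a microtubule plus-end protein, was at 0.548, 0.783 and 0.552 CPM with the wild type and at 22.4, 19.8 and 21.4 CPM with the mutant, a 33.7-fold difference with an SE of 0.18 on the log2 scale (adjusted p = 3.58e-06). Chrnb1, the beta subunit of the muscle acetylcholine receptor, was at 1.84, 2.69 and 1.76 CPM against 52.8, 55.4 and 54.1 CPM, 25.9-fold lower (SE 0.15, adjusted p = 3.58e-06). In both genes every wild-type library lay more than 10 times below every mutant library. With empty vector Slain1 was at 22.2, 21.4 and 21.9 CPM and Chrnb1 at 35.5, 35.1 and 36 CPM, so Chrnb1 was above its empty vector level in each mutant library. The tight junction gene Tjp3 was at 0.747, 1.32 and 0.401 CPM against 22.8, 25.8 and 22.8 CPM, 28.8-fold lower (SE 0.31, adjusted p = 3.1e-05). Zap70, a kinase of antigen receptor signalling, was at 0.149, 0.245 and 0.201 CPM against 4.13, 4.59 and 3.73 CPM, 20.5-fold lower (SE 0.31, adjusted p = 3.1e-05).

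The other genes among the 10 largest falls were the chemokine receptor gene Ccr9 (101-fold lower), the serine protease gene Prss57 (26.3-fold), the acetate-activating enzyme gene Acss1 (22.4-fold), the receptor kinase gene Ltk (21.5-fold), Dkkl1, a relative of the Dickkopf inhibitors of Wnt signalling (16.8-fold), and Rasgrp2, an exchange factor of the small GTPase Rap1 (16.2-fold), with adjusted p from 1.86e-05 to 0.000221. By adjusted p the leading falls were those of Dnajc6, the co-chaperone auxilin, which was at 2.84, 3.03 and 2.86 CPM against 45.8, 47.3 and 47.8 CPM (16.2-fold, adjusted p = 2.31e-06), and of the phospholipid flippase gene Atp8a1 (6.12-fold, adjusted p = 3.58e-06). More than 10% of the exonic bases of Ccr9 and Prss57 overlap another gene, so some of their counts are uncertain.

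The promoters of the falling genes carried the E-box of Snail proteins more often than promoters at large. Of the 10 largest falls, 9 had a promoter in the RefSeq table, and 6 of these held the E-box CAGGTG, on either strand, in the 250 bases before the start site: Ccr9, Slain1, Tjp3, Chrnb1, Zap70 and Dkkl1. The start of the match was 29 bases before the start site in Chrnb1, 85 in Ccr9, 108 in Tjp3, 152 in Slain1, 170 in Dkkl1 and 209 and 196 in Zap70. Only 1 start site per gene was used. The annotated extents of Chrnb1 and Dkkl1 reach 69795966 and 45212165, upstream of the start sites used (69795937 and 45211883). Their matches thus lie within the annotated gene. Promoters of Acss1, Ltk and Rasgrp2 held no such match in this window. The annotated extents of Ltk and Rasgrp2 also reach further upstream than the start site used, and other start sites were not searched. The sequences of 4 of the 6 genes with this match are shown, those with the smallest SE of the difference, 5′ to 3′ on the strand of the gene from RefSeq on GRCm38.p6, with the E-box in capitals (CACCTG where it reads on the other strand). The regions are chr14:103649978-103650227, plus strand for Slain1, chr11:69795938-69796187, minus strand for Chrnb1, chr10:81291582-81291831, minus strand for Tjp3 and chr1:36761548-36761797, plus strand for Zap70, and each ends on the base before the start site.
Slain1: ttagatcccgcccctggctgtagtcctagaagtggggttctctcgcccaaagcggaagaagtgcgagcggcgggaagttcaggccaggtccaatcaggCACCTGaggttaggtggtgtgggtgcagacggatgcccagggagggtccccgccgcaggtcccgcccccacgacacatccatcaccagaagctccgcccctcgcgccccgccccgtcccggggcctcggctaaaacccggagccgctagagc
Chrnb1: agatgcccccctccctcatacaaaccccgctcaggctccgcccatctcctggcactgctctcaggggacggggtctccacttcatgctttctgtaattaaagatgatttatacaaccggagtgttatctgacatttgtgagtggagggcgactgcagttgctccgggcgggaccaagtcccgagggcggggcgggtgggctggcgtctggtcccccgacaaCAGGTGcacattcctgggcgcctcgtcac
Tjp3: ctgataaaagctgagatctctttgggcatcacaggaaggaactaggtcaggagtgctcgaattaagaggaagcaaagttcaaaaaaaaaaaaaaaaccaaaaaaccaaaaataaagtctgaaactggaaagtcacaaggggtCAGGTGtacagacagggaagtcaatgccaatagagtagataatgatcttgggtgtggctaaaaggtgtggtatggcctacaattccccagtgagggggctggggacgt
Zap70: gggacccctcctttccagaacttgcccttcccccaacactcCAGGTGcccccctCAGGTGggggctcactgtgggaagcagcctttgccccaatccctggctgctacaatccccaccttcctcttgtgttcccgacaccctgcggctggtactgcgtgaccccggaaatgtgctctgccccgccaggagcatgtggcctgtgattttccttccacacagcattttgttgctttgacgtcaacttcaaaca

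Over all genes the share of promoters with the Snail E-box followed the size of the fall. Of 9489 tested genes with a promoter sequence (250 bases before to 50 after the start site), 16.8% held CAGGTG on either strand. The share was 32.4% (47 of 145) among genes called lower at least 4-fold, 26.9% (90 of 334) among those lower 2 to 4-fold, and 19.7% (312 of 1586) among those lower by less. It was 16.0% among genes not called, 13.2% among genes called higher under 2-fold, 15.0% among those higher 2 to 4-fold and 15.5% among those higher at least 4-fold. Pairs of E-boxes in 1 promoter were at 6.21% among the falls of at least 4-fold and 2.02% over all. The related E-box CAGCTG, searched after the shares for CAGGTG had been seen, was at 14.0% among genes lower at least 2-fold and 14.4% over all, while it was at 22.8% among genes higher at least 2-fold. The shares of CAGCTG were not split by GC content. In promoters of low, middle and high GC content (cut at 57% and 65%), CAGGTG was in 23.8%, 33.6% and 29.0% of those of genes lower at least 2-fold, against 15.4%, 18.7% and 16.2% over all. A match is a description of the letters and not a site of binding.

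Promoters of the rising genes differed in other motifs. The search used TGANTCA, a looser form of the AP-1 site TGA(C/G)TCA of Fos and Jun factors. This pattern was in 15.9% (42 of 264) of promoters of genes higher at least 4-fold. It was in 11.7% of those higher 2 to 4-fold, 3.78% of those higher by less and 4.72% over all. In the 3 classes of GC content its share among genes higher at least 2-fold was 21.4%, 11.9% and 2.59%, against 7.94%, 4.03% and 2.24% over all, and the shares lay furthest apart in the low and middle classes. The C/EBP site TTGCNNAA was in 12.4% and the GATA site AGATAA in 10.1% of promoters of genes higher at least 2-fold, against 8.18% and 6.32% over all, and the interferon-stimulated response element was in 5.3% against 3.0%. Promoters of this group had a median GC content of 58.0% against 60.7% over all. The part of base composition in the C/EBP, GATA and interferon element shares was not tested. Of the 10 largest rises 9 had a promoter sequence, 0 of them with the Snail E-box before the start site. A match to TGANTCA was in 3, namely Serpinb10, Cybb and Serpinb2, and each of these matches reads TGAATCA. The search allowed any base at N, so TGAATCA was matched though it differs from the AP-1 site at that base. The shares of TGANTCA were not split by that base. The regions of Serpinb2 (chr1:107511173-107511422, plus strand) and Cybb (chrX:9469325-9469574, minus strand) are shown for contrast. The match to TGANTCA is in capitals, 94 and 139 bases before the start site used. Both annotated genes reach further upstream than that start site.
Serpinb2: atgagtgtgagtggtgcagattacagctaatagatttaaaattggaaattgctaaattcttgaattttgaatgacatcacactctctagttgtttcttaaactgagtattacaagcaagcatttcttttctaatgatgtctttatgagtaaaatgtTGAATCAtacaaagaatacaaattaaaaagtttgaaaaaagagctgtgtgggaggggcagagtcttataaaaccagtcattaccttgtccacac
Cybb: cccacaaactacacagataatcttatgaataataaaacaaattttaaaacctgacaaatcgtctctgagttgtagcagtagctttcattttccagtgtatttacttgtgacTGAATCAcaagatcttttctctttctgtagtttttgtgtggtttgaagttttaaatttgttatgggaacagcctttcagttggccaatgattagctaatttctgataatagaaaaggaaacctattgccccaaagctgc

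**Figure D2:**
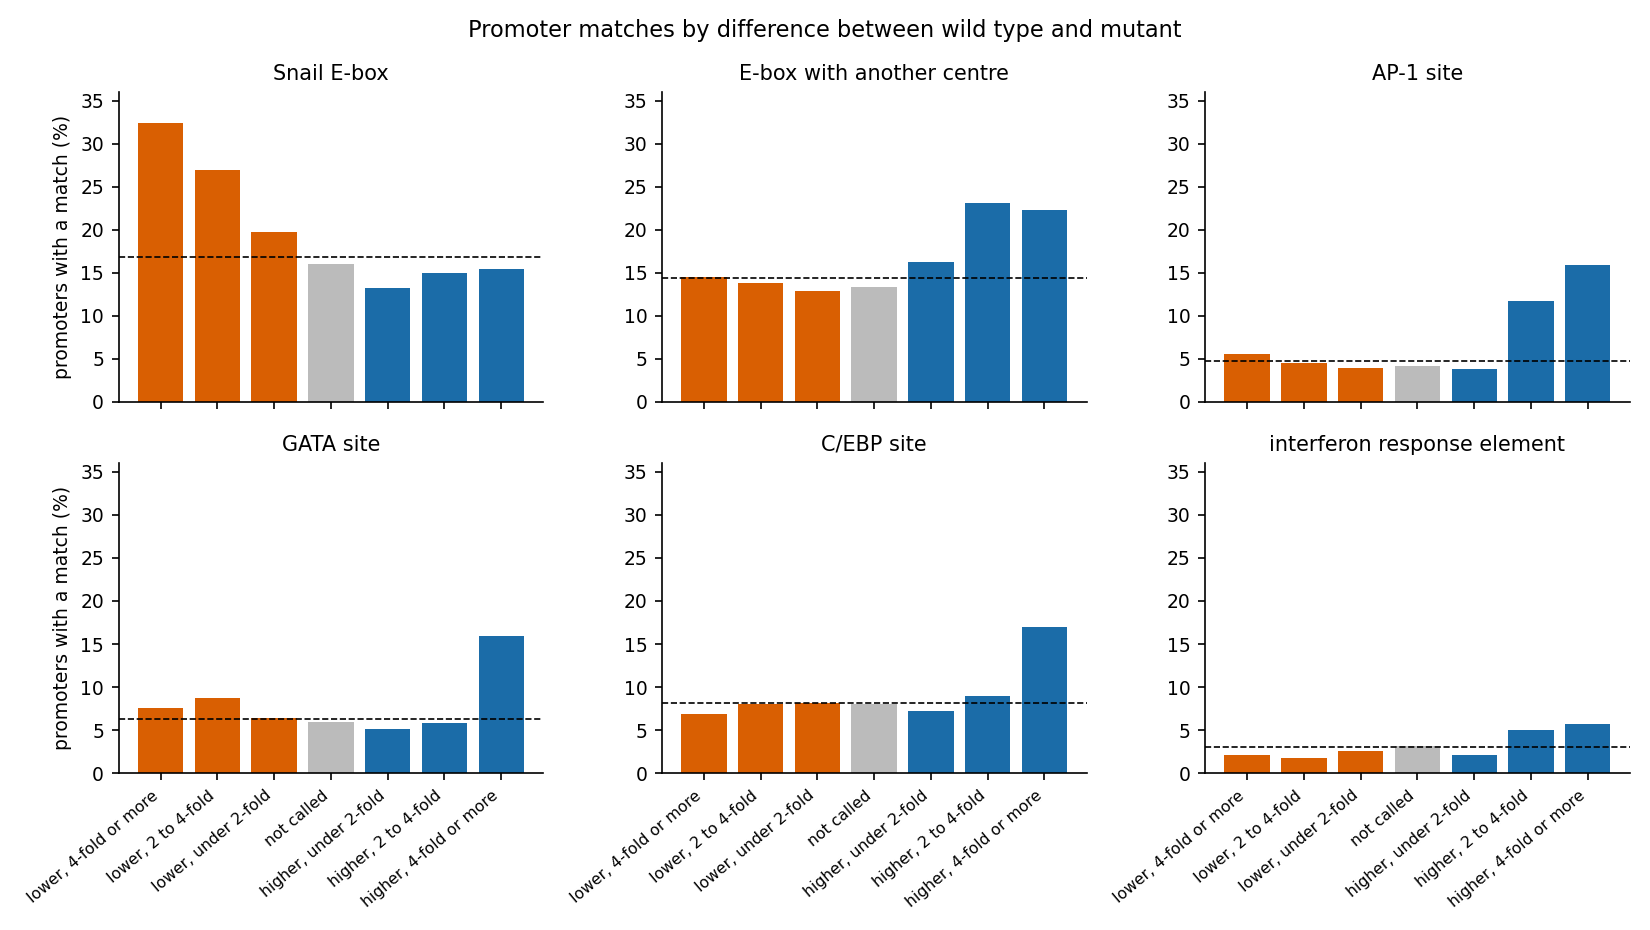
Share of promoters (%) with a match to each of 6 motifs, by the direction and size of the difference between wild type and mutant; the dashed line is the share over all tested genes with a promoter. The Snail E-box falls from 32.4% at the left to 13.2% and stays near 15% among rises. The AP-1 panel, a search for TGANTCA, is highest, at 15.9%, among rises of at least 4-fold.

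The 10 largest rises were mostly from counts at or near 0 with the mutant, and they included proteases, serpins and surface proteins. Mmp8, the neutrophil collagenase, was at 1.94, 9.06 and 20.9 CPM with the wild type and had 0 counts in all mutant libraries, at least 69.9-fold higher when the mutant is set to 3 counts in each library (adjusted p = 0.0126, and 0.0926 without wild-type replicate 1). Other genes with 0 mutant counts were the protease gene Prss23 (at least 42.7-fold higher), the surface enzyme gene Bst1 (at least 29.8-fold), the monocyte antigen gene Ly6c2 (at least 28.2-fold) and the metalloproteinase gene Mmp27 (at least 27.9-fold). Serpinb10 had 1083 counts against 1, a ratio of 1060 (95% counting interval 190 to 42000), and Serpinb2, an inhibitor of plasminogen activators, had 983 against 3, a ratio of 321 (110 to 1560). Clec1b, a podoplanin receptor of platelets, and Cybb, the catalytic subunit of the phagocyte oxidase, had 431 and 420 counts against 1 each, ratios of 422 (75.4 to 16700) and 412 (73.5 to 16300). Lcn2, the iron-siderophore binding protein of neutrophils, was at 53.5, 84.7 and 111 CPM against 0.357, 0.25 and 0.153 CPM, 318-fold higher (SE 0.69, adjusted p = 2.09e-05). Of these 10 genes 7 were lowest in wild-type replicate 1 among the wild-type libraries, and Clec1b, Bst1 and Cybb were not. Prss23 and Serpinb2 overlap another gene over more than 10% of their exonic bases.

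By adjusted p the leading rises were of genes already expressed with the mutant. Tnfaip2, a gene induced by tumor necrosis factor, was at 219, 268 and 229 CPM against 9.07, 7.78 and 7.92 CPM, 28.7-fold higher (SE 0.1, adjusted p = 2.31e-06). Ly6a, the gene of the surface antigen Sca-1, was at 520, 527 and 493 CPM against 45.9, 36.9 and 45.4 CPM, 11.9-fold higher (SE 0.09, adjusted p = 3.58e-06). The wild-type libraries of both genes, replicate 1 included, lay close together and far above all mutant libraries. Spin4, of the family of histone-reading Spindlin proteins, was 15.5-fold and Pea15a, which holds the kinase ERK in the cytoplasm, 3.55-fold higher (adjusted p = 3.58e-06 each).

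**Figure D3:**
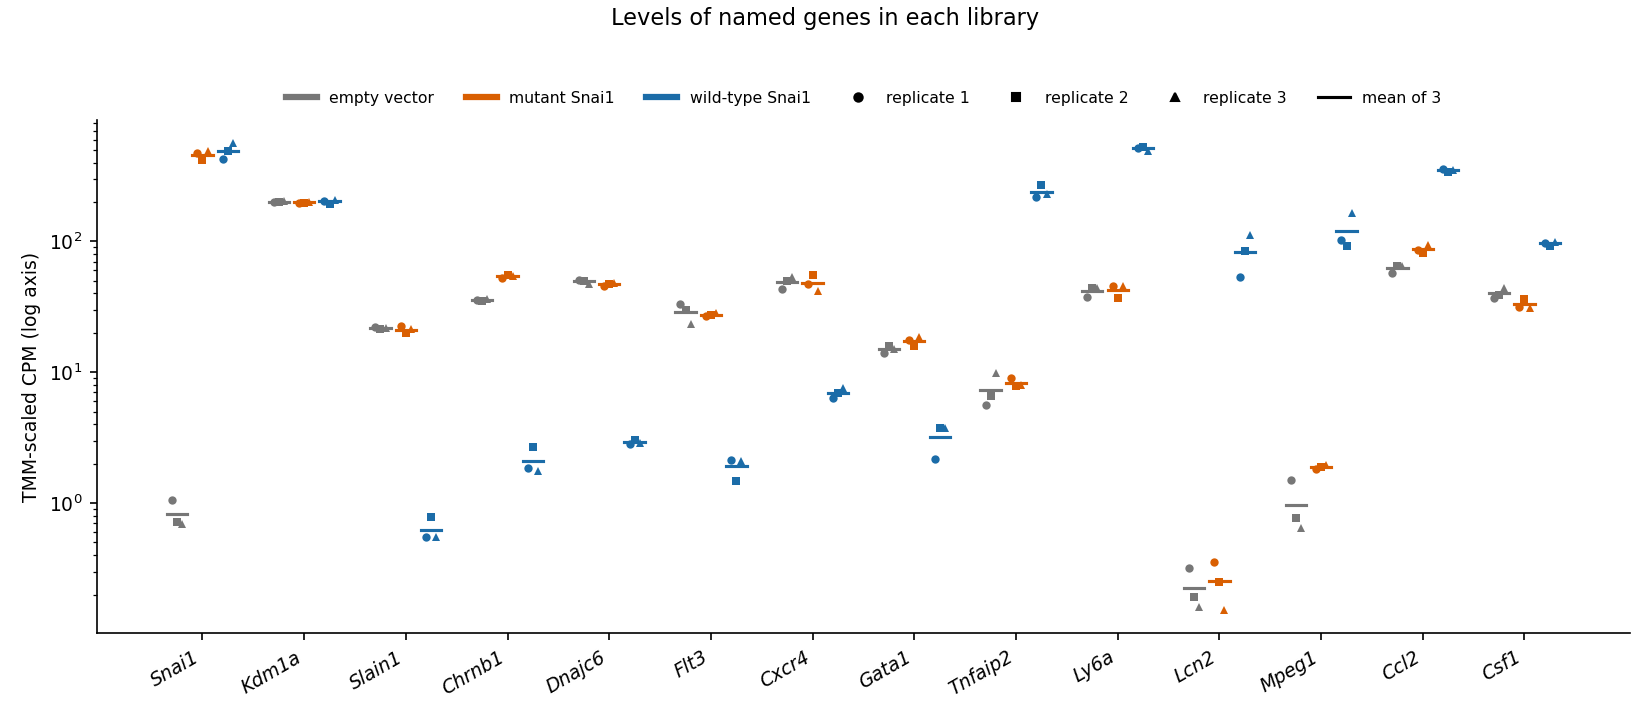
Level in CPM (log axis) of 14 genes, library by library, over the 9 libraries, with a marker shape for each replicate and a bar at the mean of 3. Snai1 and Kdm1a lie together with both Snai1 vectors, Slain1 to Gata1 lie lower and Tnfaip2 to Csf1 higher with the wild type than with the mutant in every library.

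Most tested genes of monocytes and macrophages were higher with the wild type. Of 34 listed genes 24 passed the filter, and 18 were called higher and 1 lower, with a median log2 fold change of 3.42 against -0.01 over all tested genes. Members near 0 with the mutant passed the filter through the wild-type libraries, so such counts, here and for the other lists below, describe the lists and do not measure how often their members differ. Of all tested genes 42.5% were called, 21.1% higher and 21.4% lower with the wild type. Mpeg1, a pore-forming protein that macrophages use against bacteria, was at 103, 91.5 and 165 CPM against 1.83, 1.9 and 1.94 CPM, 62.6-fold higher (SE 0.3, adjusted p = 1.68e-05). Cd14, the lipopolysaccharide co-receptor, was at 32.4, 28.7 and 47 CPM against 0.56, 0.399 and 0.307 CPM, 83.5-fold higher (SE 0.38, adjusted p = 1.36e-05). The defining macrophage genes Adgre1, which encodes F4/80, and Csf1r, the receptor of macrophage colony-stimulating factor, were 70.3-fold and 10.3-fold higher (adjusted p = 2.99e-05 and 9.79e-05), although more than 10% of the exonic bases of Csf1r overlap another gene. The IgG receptor gene Fcgr4 and the inhibitory receptor gene Cd300lf were 11.1-fold and 5.66-fold higher. Not all members moved: Fcgr3, another IgG receptor gene, was at 796, 751 and 769 CPM against 748, 665 and 728 CPM, and Fcer1g, which encodes the shared signalling chain of these receptors, at 108, 94 and 109 CPM against 97, 94 and 111 CPM, both with intervals inside a 1.5-fold difference.

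Late neutrophil genes showed a mixed picture. Of 25 listed genes 15 passed the filter, with 10 higher, 1 lower and a median of 3.85. Lyz2, lysozyme of phagocytes, was at 341, 360 and 517 CPM against 17.7, 10.8 and 16.8 CPM, 26.7-fold higher (SE 0.22, adjusted p = 2.29e-05), and Anxa1, an anti-inflammatory annexin, was 1.98-fold higher. Fpr1, the formyl peptide receptor, had 239 counts against 1, a ratio of 234 (41.6 to 9290). Of the defining genes of mature neutrophils the lactoferrin gene Ltf was at 1.79, 0.881 and 0.953 CPM against 1.99, 0.798 and 1.18 CPM (adjusted p = 0.814). Camp had 41 counts over the wild-type libraries and 0 over the mutant ones, S100a8 4 and 0, and Ngp 1 and 0, and none of these 3 passed the filter.

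Genes of primary granules and of granulocyte-monocyte progenitors went both ways, with 5 of 17 tested members higher, 6 lower and a median of 0.04, and 8 higher without wild-type replicate 1. Lower were Igfbp4, at 455, 541 and 524 CPM against 1020, 990 and 1010 CPM (2.01-fold, adjusted p = 8.8e-05), the cystatin gene Cst7 (2.89-fold, adjusted p = 0.000163) and Prss57, named above. Ctsc, the cathepsin that activates granule proteases, was 1.8-fold higher (adjusted p = 0.000182). Mpo, the myeloperoxidase of primary granules, chosen here after its values were seen, was at 943, 2650 and 3060 CPM against 5730, 5400 and 5540 CPM, 2.53-fold lower with an SE of 0.38 on the log2 scale (adjusted p = 0.0279). All wild-type libraries were below all mutant libraries in Mpo, and replicate 1 was the lowest by far. Some Mpo counts are uncertain because of an overlapping gene.

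The machinery that phagocytes use against microbes was raised in part. Of the 6 subunits of the phagocyte oxidase 4 were higher and 1 lower (median 0.68): among the higher ones, beside Cybb, were the cytosolic subunit genes Ncf4, at 31.1, 31.8 and 42.5 CPM against 14, 11.9 and 14.2 CPM (2.61-fold, adjusted p = 0.000391), and Ncf1 (2.12-fold, some counts uncertain because of overlap), while the GTPase gene Rac2 was 1.13-fold lower. The call for Rac2 was lost when single libraries were left out, with an adjusted p up to 0.2. Of 17 tested Toll-like receptors and innate adaptors 11 were higher and 2 lower (median 0.58). Receptors moved most: Tlr7, a receptor of single-stranded RNA, was at 65.9, 30.5 and 32 CPM against 1.83, 1.55 and 1.94 CPM (23.9-fold, adjusted p = 0.000152), Tlr13, a receptor of bacterial ribosomal RNA, was 31.7-fold and the peptidoglycan sensor gene Nod1 5.93-fold higher. The adaptor genes Myd88, with an overlapping gene over more than 10% of its exonic bases, and Tirap and the kinase gene Irak4 differed by no more than 1.35-fold, with intervals inside a 1.5-fold difference, and Irak3, which restrains this pathway, was 4.25-fold higher.

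Inflammatory cytokine and chemokine genes were higher in 15 of 19 tested members and lower in 0 (median 2.13). Ccl2, which attracts monocytes, was at 359, 337 and 350 CPM against 86.2, 81 and 93.1 CPM, 3.99-fold higher (SE 0.07, adjusted p = 4.85e-06). Ccl3 was at 23.9, 23.6 and 34.4 CPM against 0.713, 0.749 and 0.971 CPM, 33.2-fold higher (SE 0.25, adjusted p = 1.17e-05). Csf1, the growth factor of macrophages, was at 97.3, 92.4 and 99.5 CPM against 31.3, 36.5 and 31 CPM, 2.9-fold higher (adjusted p = 2.09e-05), so ligand and receptor of this pair were both higher with the wild type. Nos2, the inducible nitric oxide synthase, was 10.8-fold higher. In these 4 genes the wild-type libraries lay above all mutant libraries, replicate 1 included. Il6 was among the higher genes by a small margin, at 115, 131 and 132 CPM against 108, 94.7 and 111 CPM (1.19-fold, adjusted p = 0.0432, and up to 0.133 without single libraries), with an interval inside a 1.5-fold difference. Tgfb1 and Vegfa did not pass the test and were inside that range.

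Of 22 listed extracellular proteases and their inhibitors 14 passed the filter, several of them through the wild-type libraries alone, and 13 were higher and 0 lower, with a median of 3.58. Beside Prss23, Serpinb2 and Serpinb10 it held the metalloproteinase gene Mmp19, 5.52-fold higher (adjusted p = 0.000129), where an overlapping gene makes part of the counts uncertain.

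Transcription factors of myeloid cells were divided, with 10 of 27 higher, 5 lower and a median of 0.08, and 3 lower without mutant replicate 2 or 3. Mitf, a factor of mast cells, osteoclasts and lysosomal genes, was at 61.8, 47.6 and 50.7 CPM against 9.32, 11.2 and 9.76 CPM, 5.23-fold higher (SE 0.13, adjusted p = 2.12e-05). Nfil3 was 6.1-fold higher and Cebpg 1.86-fold lower (adjusted p = 8.49e-05 and 8.86e-05). Runx1, a factor of definitive blood formation, was at 80.1, 84.8 and 88.9 CPM against 154, 177 and 174 CPM, 2.01-fold lower (SE 0.07, adjusted p = 8.53e-05). The master factor of myeloid cells, Spi1, did not pass the test at 60.8, 74 and 87.2 CPM against 77.5, 81 and 83.4 CPM (adjusted p = 0.408). Cebpb and Cebpe, factors of macrophages and of granulocytes chosen after their values were seen, were 16.5-fold and 6.87-fold higher (adjusted p = 0.000743 and 0.00193), and both were lowest among the wild-type libraries in replicate 1. Part of the Cebpb counts is uncertain because of an overlapping gene.

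Among the factors that define HPC7 progenitors 3 of 12 were higher and 2 lower (41.7% called, against 42.5% of all tested genes), with 7 inside a 1.5-fold difference. There were 5 higher without wild-type replicate 1, 1 higher without mutant replicate 1 or 3 or under upper quartile scaling, and 1 lower without mutant replicate 1 or 2. The partner protein gene Lmo2 was at 137, 140 and 124 CPM against 52.6, 53.7 and 56.9 CPM, 2.44-fold higher (SE 0.07, adjusted p = 2.35e-05). Its partner Tal1 was at 322, 290 and 266 CPM against 367, 379 and 345 CPM, 1.25-fold lower (adjusted p = 0.016, up to 0.0652 without single libraries). Erg was inside a 1.5-fold difference with an interval of -0.11 to 0.19, and Fli1 was 1.19-fold higher (adjusted p = 0.0219, up to 0.0984 without single libraries).

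Of 26 tested genes of stem and multipotent progenitor cells 8 were lower and 4 higher (46.2% called, against 42.5% of all tested genes). The median of -0.11 was near that of all genes, and 2 were higher without mutant replicate 1. Flt3, a cytokine receptor of multipotent and lymphoid progenitors, was at 2.14, 1.47 and 2.11 CPM against 26.7, 27.6 and 28.4 CPM, 14.6-fold lower (SE 0.15, adjusted p = 5.77e-06). With empty vector Flt3 was at 33.3, 30 and 23.5 CPM. The Ikaros family gene Ikzf2 was 2.05-fold lower, while the stem cell factor Hlf was at 85.4, 102 and 98.6 CPM against 34.5, 42.3 and 34.3 CPM, 2.56-fold higher (adjusted p = 0.000114). Bmi1 and Hmga2 were inside a 1.5-fold difference. So Ly6a and Hlf on one side and Flt3 and Ikzf2 on the other moved in opposite directions within this list, with groups that did not overlap in any of the 4.

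Of 27 adhesion and homing genes 14 were higher and 5 lower (median 0.54). Cxcr4, the receptor that retains progenitors in the bone marrow, was at 6.38, 6.9 and 7.62 CPM against 47.3, 54.9 and 41.9 CPM, 6.95-fold lower (SE 0.13, adjusted p = 1.28e-05), and Ccr9, the thymus and gut homing receptor, was lower as given above. Cd93 was at 1090, 1230 and 1340 CPM against 483, 502 and 543 CPM, 2.38-fold higher, and the integrin gene Itgb3 at 799, 868 and 815 CPM against 473, 495 and 479 CPM, 1.7-fold higher (adjusted p = 7.27e-05 and 8.87e-05). Cd44, Pecam1 and Itga4 were inside a 1.5-fold difference.

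Erythroid genes fell in 8 of 12 tested members and rose in 2 (median -0.75). Gata1, the factor of the erythroid and megakaryocyte lineages, was at 2.19, 3.72 and 3.76 CPM against 17.6, 15.9 and 18.7 CPM, 5.44-fold lower (SE 0.2, adjusted p = 0.000128), and its cofactor gene Zfpm1 was 1.67-fold lower. Bcl11a, a repressor of fetal globin genes, was at 28.2, 28.3 and 29.3 CPM against 76.2, 79.3 and 78.2 CPM, 2.75-fold lower (adjusted p = 8.02e-06). The globin gene Hbb-bs was at 0 counts in all libraries.

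Megakaryocyte and platelet genes were higher in 10 of 18 and lower in 2 (median 0.58), and lower in 5 without wild-type replicate 1. F2r, a thrombin receptor, was at 913, 835 and 838 CPM against 395, 374 and 416 CPM (2.17-fold, adjusted p = 3.79e-05), and the related F2rl2 was 6.1-fold higher. The glycoprotein gene Gp9, part of the von Willebrand factor receptor, was at 2.39, 2.94 and 3.06 CPM against 13.5, 10.8 and 11.2 CPM, 4.26-fold lower. Plek and Lat were inside a 1.5-fold difference. In the list of mast cells, basophils and eosinophils 6 of 14 were higher and 3 lower (median 0.19): the interleukin-33 receptor gene Il1rl1 was 2.55-fold higher, the shared receptor chains Csf2rb and Csf2rb2 3.73-fold and 3.22-fold higher, and the interleukin-5 receptor gene Il5ra 2.62-fold lower. Cpa3 and Slc18a2, mast cell genes at high levels in all groups, were inside a 1.5-fold difference.

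Lymphoid genes were sparse, with 9 of 25 tested, 3 higher and 5 lower (median -1.05, and 0.88 with 2 lower under a filter at a mean of 1 CPM). Beside Zap70, the T cell kinase gene Lck was at 5.98, 5.34 and 5.47 CPM against 11.7, 10.7 and 12 CPM (2.07-fold lower, adjusted p = 0.00045). Dntt, the DNA polymerase of lymphoid progenitors, rose 6.01-fold, to 4.18, 3.18 and 2.86 CPM from 0.662, 0.349 and 0.664 CPM, and Notch1 1.82-fold. Of dendritic cell and antigen presentation genes 6 of 14 were higher and 1 lower (median 0.08), and 2 lower without wild-type replicate 1. The costimulatory gene Cd80 was at 8.22, 4.36 and 6.97 CPM against 0.357, 0.399 and 0.613 CPM (14.0-fold, adjusted p = 0.000179), and Cd86 had 93 counts against 1, a ratio of 91.1 (16.0 to 3640). The class I gene H2-K1 fell 1.71-fold, and the peptide transporter genes Tap1 and Tap2, the latter with some counts uncertain because of overlap, were inside a 1.5-fold difference.

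The programs Snai1 is best known for were represented by few members in these blood cells. Of 31 epithelial junction and polarity genes 12 were tested, with 5 higher and 6 lower (median -0.14, and 0.45 without wild-type replicate 1). Tjp3 and the polarity gene Pard6b were the deepest of the named falls in this list, Pard6b at 3.44, 4.45 and 4.36 CPM against 19.3, 19.2 and 21.4 CPM (4.92-fold, adjusted p = 2.66e-05). The catenin genes parted: Jup, plakoglobin, was 1.84-fold lower and Ctnnb1, beta-catenin, at 1210, 1160 and 1220 CPM against 660, 634 and 658 CPM, 1.83-fold higher (adjusted p = 0.000291 and 4.74e-05). Ctnnb1 overlaps another gene over more than 10% of its exonic bases. The E-cadherin gene Cdh1, a known Snai1 target in epithelia, had 8 counts over the wild-type and 7 over the mutant libraries and was not tested, and the N-cadherin gene Cdh2 had 0 counts in all libraries.

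Of 22 mesenchymal genes 10 were tested, 7 of them higher and 0 lower (median 1.05). Cald1, an actin-binding protein, was at 6.97, 7.59 and 10.3 CPM against 0.357, 0.25 and 0.307 CPM, 26.5-fold higher (SE 0.32, adjusted p = 2.6e-05), the matrix protein gene Tgfbi was 20.5-fold and the tropomyosin gene Tpm1 1.61-fold higher. S100a4 was at 139, 45.6 and 62.5 CPM against 3.36, 2.5 and 3.42 CPM, 26.3-fold higher, with more than 10% of its exonic bases in an overlapping gene. The fibroblast genes Col1a1 and Col1a2 had at most 1 count per group. Tcf4 and Axl were inside a 1.5-fold difference.

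Components of cell shape and of growth factor signalling followed. Of 25 actin remodelling genes 11 were higher and 7 lower (median 0.22). Gsn, the filament-severing gelsolin, was at 835, 708 and 702 CPM against 188, 170 and 180 CPM (4.13-fold higher, adjusted p = 9.43e-06), while Ezr, the membrane linker ezrin, was at 31.3, 25.1 and 28.7 CPM against 128, 122 and 131 CPM (4.52-fold lower, adjusted p = 8.36e-06). Gas7 was 69.2-fold higher and Coro1c 1.68-fold higher, and Rdx, a paralog of ezrin, was 1.17-fold higher with an interval inside a 1.5-fold difference. Of 24 genes of the TGF-beta and BMP pathway 8 were higher and 3 lower (median 0.16, 45.8% called, against 42.5% of all tested genes). In this list 11 were higher and 5 lower without wild-type replicate 1. Without mutant replicate 1 there were 3 higher, and 5 without any 1 of the other 4 libraries. The BMP receptor gene Acvr1 was at 16.9, 9.15 and 10.6 CPM against 0.764, 0.649 and 0.511 CPM (18.8-fold higher, adjusted p = 8.79e-05), the binding protein gene Ltbp1 was higher by 1.65 on the log2 scale, and Smad3 was 1.47-fold lower. Among 14 ERK feedback genes 6 were higher and 2 lower (median 0.7): Dusp4 was 2.13-fold higher and Phlda1, with uncertain counts because of an overlapping gene, 10.3-fold higher, while Dusp6 was at 245, 207 and 253 CPM against 445, 415 and 513 CPM (1.96-fold lower, adjusted p = 0.000439).

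Several programs depended on which wild-type library was read. Immediate-early genes had median differences from the mutant mean of -0.15, 1.72 and 1.98 in wild-type replicates 1, 2 and 3. In this list 8 of 20 were higher and 1 lower (45.0% called, against 42.5% of all tested genes). There were 13 higher without wild-type replicate 1, and 5 without wild-type replicate 2, wild-type replicate 3 or mutant replicate 2. With all 6 libraries limma-voom also gave 5 higher, and its median log2 fold change was 1.04 against 1.46 in the main fit. Jun was at 175, 250 and 340 CPM against 48.2, 42.6 and 62.5 CPM (4.95-fold, adjusted p = 0.000567), Btg2 was 9.08-fold and Ier5 higher by 1.72 on the log2 scale, and Myc was at 184, 214 and 188 CPM against 308, 318 and 327 CPM (1.64-fold lower, adjusted p = 0.0003). Egr1, Egr3 and Nr4a1, chosen after their values were seen, show the split. Egr3 was at 7.17, 159 and 227 CPM against 4.38, 5.49 and 14 CPM, Nr4a1 at 38.1, 249 and 429 CPM against 34.2, 35.1 and 60.3 CPM, and Egr1 at 60.3, 374 and 487 CPM against 155, 163 and 315 CPM. In Egr3 and Nr4a1 wild-type replicate 1 lay within the range of the mutant libraries, and in Egr1 it lay below it.

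Cholesterol synthesis and glycolysis showed the same order of libraries. Cholesterol genes had median differences of 0.34, 0.84 and 0.85, with 20 of 24 higher and 0 lower (median 0.7). Lss, lanosterol synthase, was at 105, 169 and 149 CPM against 61.7, 62.3 and 54.6 CPM (2.36-fold, adjusted p = 0.0011), and Acat2 and Stard4 were 1.76-fold and 1.75-fold higher, all 3 lowest in replicate 1 and above the mutant libraries there too. Glycolysis and hypoxia genes had median differences of -0.2, 0.6 and 0.71. Here 11 of 28 were higher and 0 lower (39.3% called, against 42.5% of all tested genes). The number higher was 19 without wild-type replicate 1 and 7 without wild-type replicate 2 or mutant replicate 2. Ndrg1, a hypoxia-responsive gene, was an exception in its evenness at 272, 296 and 295 CPM against 49.2, 54.8 and 61.6 CPM (5.17-fold, adjusted p = 6.01e-06).

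Interferon, p53 and lysosomal genes are given next as lists in which replicate 1 had the highest median of the wild-type libraries, which was also so in some other lists by smaller margins. Interferon-stimulated genes had median differences of 1.28, 0.34 and 0.28, with 13 of 26 higher and 3 lower, and 15 higher and 7 lower without replicate 1. Without mutant replicate 1, 2 or 3, 7, 6 and 8 were higher, and 1 was lower without mutant replicate 2. Ifit1 was at 5.63, 2.06 and 2.41 CPM against 0.306, 0.25 and 0.511 CPM (9.26-fold, adjusted p = 0.00268), and Rsad2 was 3.85-fold higher. Targets of p53 had 0.86, 0.35 and 0.25, with 10 of 20 higher and 2 lower, with 6 lower without replicate 1, and 6, 5 and 7 higher without mutant replicates 1, 2 and 3. Cdkn1a, the cell cycle inhibitor p21, was at 1020, 1170 and 1280 CPM against 580, 552 and 673 CPM (1.9-fold higher, adjusted p = 0.000517), Mdm2 was 1.84-fold higher and the DNA repair gene Xpc 1.89-fold lower. Lysosomal genes had 0.65, 0.3 and 0.35, with 19 of 28 higher and 1 lower. The prosaposin gene Psap was 1.68-fold higher (adjusted p = 0.000599).

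**Figure D4:**
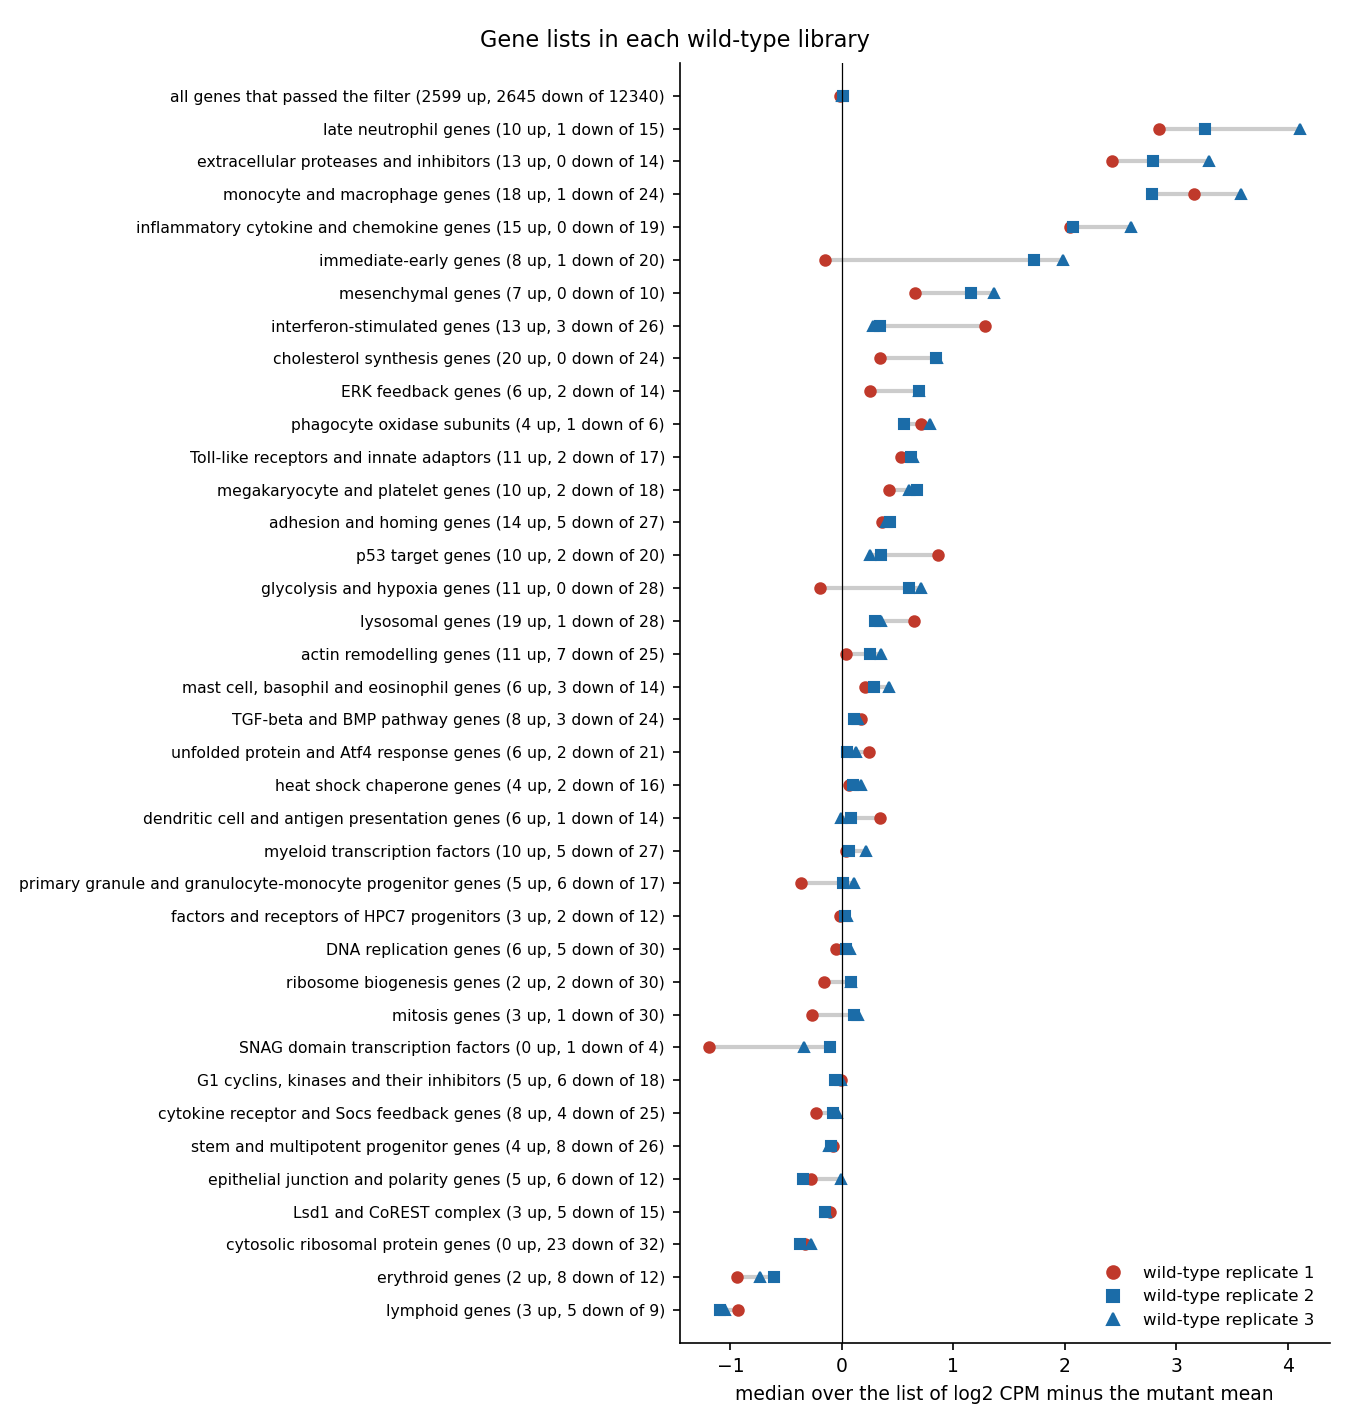
Median over each gene list of the difference between a wild-type library and the mean of the mutant libraries (log2 CPM), with 1 marker per wild-type library, replicate 1 in red; counts of called members are in the labels. The monocyte and late neutrophil lists lie between 2.78 and 4.11 in all libraries, while immediate-early genes lie at -0.15 in replicate 1 and 1.72 and 1.98 in the others.

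Ribosomal protein genes were lower by a small and even amount. Of 32 tested, 23 were lower and 0 higher, with a median of -0.34, and median differences were -0.33, -0.38 and -0.28 in the wild-type libraries. Rps4x was at 207, 194 and 210 CPM against 272, 256 and 267 CPM, 1.31-fold lower (SE 0.06, adjusted p = 0.00168), and Rpl7a was 1.29-fold lower. The counts ranged from 22 to 24 lower under other scalings and tools and from 13 to 25 when libraries were left out, with 0 higher throughout, 13 being the value without wild-type replicate 2, 14 without mutant replicate 1 and 15 without mutant replicate 3. Of 30 ribosome biogenesis genes 29 were inside a 1.5-fold difference, 2 were called higher and 2 lower. Without wild-type replicate 1 there were 8 higher and 2 lower, without mutant replicate 1 or 2 there were 0 higher, and upper quartile scaling gave 0 higher and 5 lower. Dkc1, which modifies ribosomal RNA, was at 161, 160 and 162 CPM against 159, 153 and 158 CPM, with an interval of -0.09 to 0.15.

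Of 30 DNA replication genes 25 were inside a 1.5-fold difference. In this list 6 were called higher, 5 lower (36.7% called, against 42.5% of all tested genes) and 0 by 2-fold. Pole, the leading-strand polymerase, was at 139, 145 and 141 CPM against 137, 141 and 134 CPM, and the helicase subunit gene Mcm5 had an interval of -0.25 to 0.01. Ccne1, cyclin E1, was higher by 1.53-fold (adjusted p = 0.000812) and Mcm7, whose counts are partly uncertain because of overlap, lower by 1.33-fold. Of 30 mitosis genes 22 were inside that range, 3 higher and 1 lower. Median differences of the mitosis list were -0.27, 0.11 and 0.14, and without wild-type replicate 1 there were 14 higher and 2 lower mitosis genes and 13 higher and 5 lower replication genes. Without any 1 of the other libraries 1 mitosis gene was called higher, and 2 replication genes were lower without mutant replicate 1 and 3 without mutant replicate 2, mutant replicate 3 or wild-type replicate 2. Among 18 regulators of the G1 phase 5 were higher and 6 lower, with 3 lower without mutant replicate 1 or 3: Ccnd1, cyclin D1, was at 838, 628 and 665 CPM against 209, 179 and 236 CPM (3.39-fold higher, with some counts uncertain), E2f2 was 3.57-fold lower, and the inhibitor genes Cdkn1b and Cdkn2a were 1.54-fold and 1.76-fold lower.

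Of 15 genes of the Lsd1 and CoREST complex 10 were inside a 1.5-fold difference, 3 were called higher, 5 lower (53.3% called, against 42.5% of all tested genes) and 0 by 2-fold (median -0.17). There were 8 lower without wild-type replicate 1 or under upper quartile scaling, and 1 higher without mutant replicate 1. Zmym3 was at 109, 125 and 118 CPM against 181, 197 and 182 CPM (1.61-fold lower, adjusted p = 0.000312), the deacetylase gene Hdac2 was 1.25-fold lower, and the corepressor gene Ctbp2 was at 61.6, 54.5 and 55.6 CPM against 33.4, 35.6 and 33 CPM (1.67-fold higher, adjusted p = 0.000358). Of 4 tested genes of other SNAG-domain factors 0 were higher and 1 lower, and 2 lower without wild-type replicate 1. Gfi1b was at 48.9, 62.1 and 55.5 CPM against 63, 57.8 and 61.1 CPM, with an interval of -0.36 to 0.08. Snai3, a relative of Snai1, had 2 counts over the wild-type and 40 over the mutant libraries, a mutant to wild-type ratio of 20.4 (counting interval 5.29 to 174). Snai2 had 0 counts in all libraries.

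Of 25 cytokine receptor and feedback genes 8 were higher and 4 lower (median -0.11, 48.0% called, against 42.5% of all tested genes). There were 7 lower without wild-type replicate 1 and 2 without mutant replicate 2. Il10ra, the interleukin-10 receptor, was at 1.25, 2.59 and 3.06 CPM against 23.8, 28.6 and 29.3 CPM, 11.9-fold lower (SE 0.27, adjusted p = 8.67e-05). Its partner chain Il10rb was 1.65-fold higher, with some counts uncertain because of overlap, and the tumor necrosis factor receptor genes Tnfrsf1a and Tnfrsf1b were 1.71-fold and 2.15-fold higher. Of 16 heat shock chaperones 12 were inside a 1.5-fold difference. Hspa4l stood apart at 3.94, 4.36 and 3.41 CPM against 45.7, 50.3 and 44.5 CPM, 12.1-fold lower (SE 0.11, adjusted p = 3.58e-06), while its paralog Hspa4 was 1.28-fold higher. Of 21 unfolded protein and Atf4 response genes 6 were higher and 2 lower (38.1% called, against 42.5% of all tested genes). The counts were 9 and 9 without wild-type replicate 1. Atf4 itself had an interval of -0.22 to 0.22.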

How the data were processed

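GFP-sorted HPC7 cells gave TruSeq stranded mRNA libraries, per the labels' protocols. The authors deposited raw counts per Entrez gene. The submitters' processing notes name featureCounts, mm10, edgeR 3.15.0 and limma 3.29.12, while aligner, annotation and strand setting are not given in the sources used here. Of 27179 identifiers 25275 matched a RefSeq symbol (GRCm38.p6), and exon overlaps above 10% were marked from GENCODE.

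The 6 libraries were filtered (filterByExpr), scaled (TMM) and fitted with edgeR 4.0.16 in R 4.3.3 (robust quasi-likelihood), with Benjamini-Hochberg adjustment over all tested genes. Levels are CPM on TMM factors of all 9 libraries, and folds come from the 6-library fit. Floors and counting intervals cover counting error only. On simulated counts for this comparison (12340 genes) the fit called 53.7%, 80.6% and 100% of changes of 1.5-fold, 2-fold and 4-fold, and 0.082% of unchanged genes. In the simulation 12140 genes were unchanged, whereas 42.5% of genes were called in the data. No simulated library was shifted as wild-type replicate 1 was. These rates therefore need not hold for the data.

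Named genes are Snai1, Kdm1a, the 10 largest rises and falls (mean of at least 1 CPM, groups apart, placeholder symbols passed over), the 4 smallest adjusted p each way, and per list up to 4 called members by adjusted p and up to 3 with the narrowest interval inside 1.5-fold, plus the cell type markers. Cdh2 and Snai2, like those marked in the text, were chosen after their values were seen. Members and lists were chosen with earlier results of these data known. Alternatives were RLE and upper quartile scaling, no filter, a mean of at least 1 CPM, DESeq2, limma-voom, a replicate block, a 9-library fit and leaving out each library.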

Additional observations from a re-analysis of the deposited data

How the results depend on the processing

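The counts of called genes, of 2-fold differences and of intervals inside 1.5-fold stayed within 1.5 times the reported counts under all alternatives run. Leaving out single libraries gave 1783 to 3718 genes higher and 1805 to 3593 lower, 737 to 881 higher and 570 to 726 lower at least 2-fold, and 5587 to 7178 inside 1.5-fold. Upper quartile scaling moved the median of all genes by -0.07 and the share of calls that were higher from 49.6% to 41.2%. After removal of group means, the correlations of same-numbered libraries of the 2 groups were 0.114, 0.024 and 0.221. Those of differently numbered libraries ran from -0.174 to 0.06. With 3 libraries per group these values do not settle whether the replicate numbers pair the libraries. The fit with the replicate number as a block called 2439 genes higher and 2449 lower. Of 238 named genes, 0 changed sign in any alternative. The largest number that lost a call was 20, without mutant replicate 1, then 11 under upper quartile scaling among scalings and tools. At this depth 2201 genes were neither called nor shown to lie inside 1.5-fold.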
